A study of Homo sapiens with 12 samples.

Results

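Negative control mimics are the reference against which the effect of a miRNA mimic is read, and here 2 different ones, mimic-ctrl1 and mimic-ctrl2, were each transfected into both cell lines. To see how far they differ from each other, the arrays of mimic-ctrl1 were set against those of mimic-ctrl2 with cell line as a block. These were 4 of the 12 arrays, chosen by their labels, and 10494 genes with a probe above background were compared. MCF10A is a non-tumorigenic breast epithelial line, and MDA-MB-231 is a triple-negative breast cancer line with mesenchymal features.

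Each line was given 30 nM of mimic-ctrl1 or 30 nM of mimic-ctrl2 with Lipofectamin2000, a cationic lipid reagent, and RNA was taken 48 h later. Every combination of line and control mimic was measured in a single sample on 1 Illumina HumanHT-12 v4 array. No value of a control mimic therefore has a replicate within its line, and the mimic cannot be told apart there from the well, extraction and array that carried it. The other 8 arrays held biological duplicates of both lines given the miRNA hsa-miR-140-3p (called the canonical mimic below) or its variant 5’isomiR-140-3p (the isomiR mimic) at the same dose and time. They served to measure the spread between replicates and, further on, as another point of reference. CDH1, KRT5 and KRT14, markers of epithelial cells, were above background on both MCF10A control arrays and on neither MDA-MB-231 control array. Vimentin (VIM) was above background on all 4, at an intensity of 5500 with mimic-ctrl1 and 6714 with mimic-ctrl2 in MCF10A, and at 14007 with mimic-ctrl1 and 14361 with mimic-ctrl2 in MDA-MB-231. ZEB1, a mesenchymal transcription factor, was below background on all 4.

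A miRNA mimic is a short RNA duplex of which 1 strand is loaded into Argonaute and guides it to messenger RNAs that pair with its seed, the bases next to its 5’ end. A control mimic enters the same machinery, but its sequence is chosen to have few targets in human cells. It may still pair with some messages, and transfection itself can alter expression, which is why studies often include more than 1 control. The sequences of mimic-ctrl1 and mimic-ctrl2 were not given in the sources used here. The canonical miRNA carried by 4 of the other arrays is shown to illustrate the part of a mimic that pairs, with its seed (bases 2 to 8) in capitals, as RefSeq gives it on GRCh38.p14 at chr16:69933142-69933162, plus strand.
hsa-miR-140-3p: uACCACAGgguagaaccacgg

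The control mimics of a line differed from each other more than replicate arrays did. Expression was taken as log2 intensity after background correction and quantile normalization, and a gene was counted as past the limit when the lower array of a pair had less than 65% of the intensity of the other, which is 0.62 on the log2 scale. In MCF10A, 939 genes (8.95%) passed this limit between mimic-ctrl1 and mimic-ctrl2, 456 of them higher (4.35%) and 483 lower (4.6%) with mimic-ctrl1. The MDA-MB-231 arrays gave 1212 genes (11.5%), with 640 higher (6.1%) and 572 lower (5.45%). Replicate arrays of a mimic differed by this much in 469 and 418 genes of MCF10A and in 206 and 250 genes of MDA-MB-231. The SD of the log2 differences over all genes was 0.37 between the MCF10A controls and 0.41 between the MDA-MB-231 controls, against 0.22 to 0.27 for the 4 replicate pairs. Quantile normalization sets the median difference over all genes near 0, and under median scaling it was -0.11 in MCF10A.

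**Figure D1:**
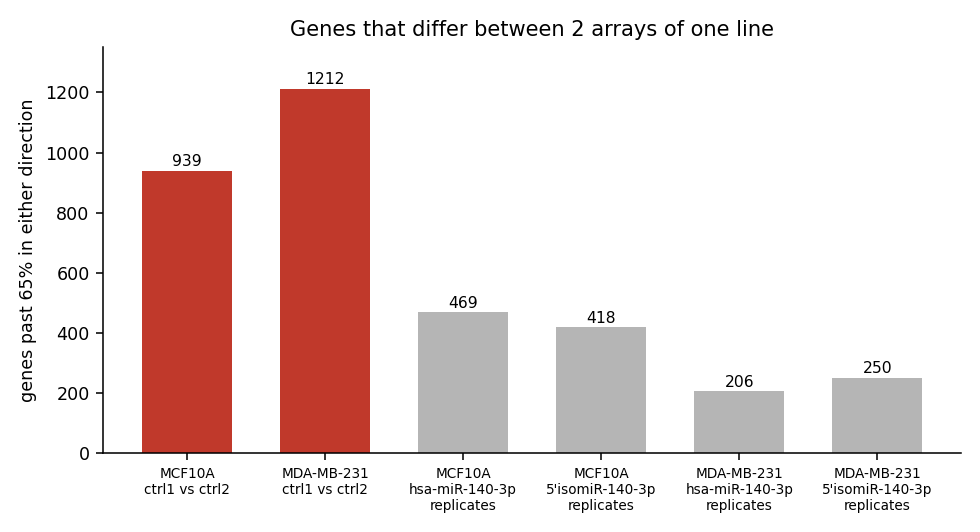
Number of genes, of 10494, whose intensity on 1 array was under 65% of that on the other, for each pair of arrays within a line. Red bars are mimic-ctrl1 against mimic-ctrl2, grey bars are replicate arrays of the same mimic. Both control pairs (939 and 1212 genes) stand above all 4 replicate pairs (206 to 469 genes).

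Part of the difference was shared by the lines. Its sign was the same in both lines in 6175 genes, which is 58.8% of those tested, and across genes the differences of the lines correlated with r = 0.29 (rho = 0.27) over 10494 genes. Over the 7688 genes above background on all 4 control arrays r was 0.39. These are correlations across genes, which are not independent replicates, and no p is given. In 199 genes (1.9%) the limit was passed in the same direction in both lines, with 83 higher (0.791%) and 116 lower (1.11%) with mimic-ctrl1. Another 31 genes (0.295%) passed it in both lines in opposite directions.

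The fit with cell line as a block took its spread from the disagreement between lines and from the 4 replicate pairs. Over all genes the residual SD was 0.23 from the control arrays and 0.18 from the replicate pairs. The pooled spread is thus smaller than that of the controls themselves, and the SE and adjusted p assume a common spread. This fit called 301 genes, 2.87% of those tested, at an adjusted p under 0.05 (limma, Benjamini-Hochberg) and a mean difference past the limit. Of these, 132 (1.26%) were higher and 169 (1.61%) lower with mimic-ctrl1. All 301 had the same sign in both lines, which the call itself favours, and 70 of the higher and 99 of the lower genes passed the limit in each line on its own. At any size of difference, 427 genes had an adjusted p under 0.05, and 2383 (22.7%) had an unadjusted p under 0.05. Just inside the limit lay HMOX1 with a mean log2 difference of -0.6215 and GJB2 with 0.6242, and just outside lay TIPARP with -0.6212 and IL12A with 0.6202. HMOX1 was not well above background with mimic-ctrl1 in MCF10A, nor IL12A with either control there, so that these values are imprecise. The calls rest on the replicate pairs: with the 4 control arrays alone no gene was called by limma, although 267 higher and 293 lower genes had an unadjusted p under 0.05. They also rest more on MDA-MB-231, since 323 genes (3.08%) were called higher and 275 (2.62%) lower when only that line was used, against 63 (0.6%) and 56 (0.534%) when only MCF10A was used.

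**Figure D2:**
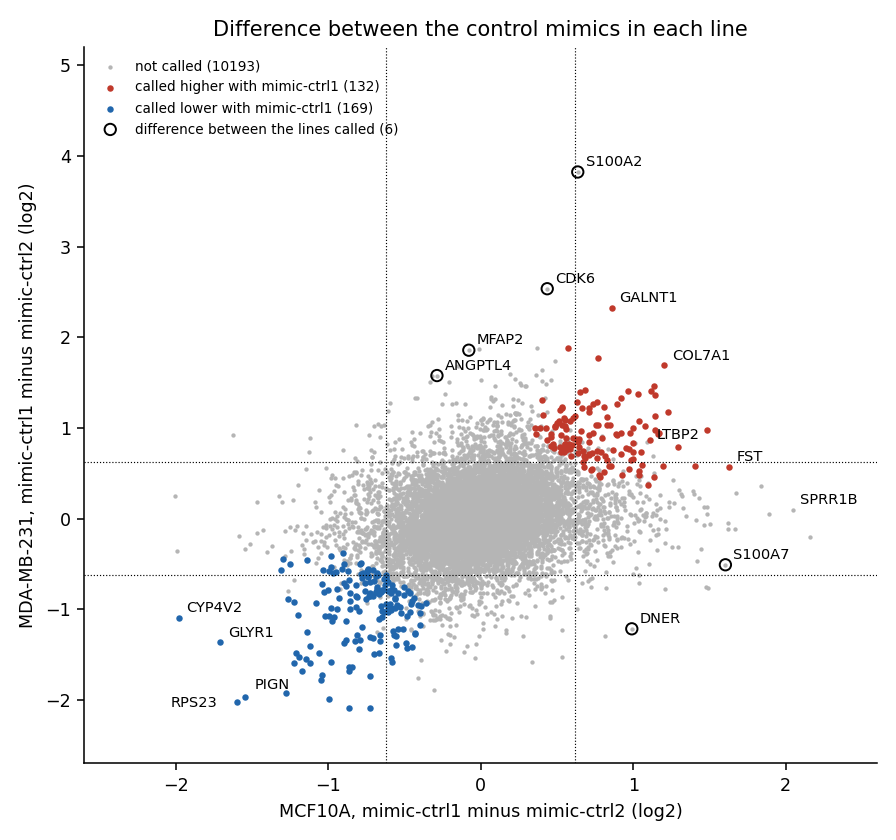
Difference between mimic-ctrl1 and mimic-ctrl2 for each of 10494 genes, in MCF10A on the horizontal and in MDA-MB-231 on the vertical axis, both in log2. Red and blue points are the 132 genes called higher and the 169 called lower with mimic-ctrl1 over both lines, circles mark the 6 genes whose difference itself differed between the lines, and dotted lines mark the limit of 65%. The called genes fill the upper right and lower left corners, and the circled ones lie off that diagonal.

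The genes called lower with mimic-ctrl1 had a median level close to that of all genes (7.62 against 7.74 in log2 intensity over the 12 arrays). Their median difference was -0.74 in MCF10A and, for MDA-MB-231, -0.93, and it was the larger in MDA-MB-231 in 121 of 169 genes (5721 of 10494 over all tested). Those called higher had a median level of 7.76 and median differences of 0.73 for MCF10A and 0.89 for MDA-MB-231, which was the larger in 87 of 132. A second probe above the filter was present for 44 of the lower and 30 of the higher genes. Its mean difference had the same sign in 40 of 44 and in 29 of 30, and was itself past 65% in 26 of 44 and in 12 of 30 genes. Over all tested genes with a second probe the sign was shared in 1788 of 2629. All 4 control arrays were above background for 131 of the lower and 95 of the higher genes. In 12 of the lower genes neither mimic-ctrl1 array was well above background, and in 11 of the higher genes neither mimic-ctrl2 array was, so that only a bound is known there.

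The lowest gene with mimic-ctrl1 was RPS23, which encodes a protein of the small ribosomal subunit. With mimic-ctrl1 its log2 level was 6.12 in MCF10A and 9.32 in the MDA-MB-231 line, against 7.72 and 11.34 with mimic-ctrl2, and the mean difference was -1.81 ± 0.16 (SE, adjusted p = 0.00425, limma). Transcripts of processed pseudogenes could also reach its single probe, so the identity of this signal is uncertain. Of 36 tested cytosolic ribosomal proteins it was the only one called, and the median of that list was -0.05 in MCF10A and -0.03 for the other line. PIGN, an enzyme of glycosylphosphatidylinositol anchor synthesis, had 7.38 (MCF10A) and 6.18 (MDA-MB-231) with mimic-ctrl1, against 8.93 and 8.14 with mimic-ctrl2 (-1.76 ± 0.14, adjusted p = 0.00343). MMD, a membrane protein named for monocyte to macrophage differentiation, had 7.86 (MCF10A) and 7.19 (MDA-MB-231) with mimic-ctrl1, against 9.14 and 9.11 with mimic-ctrl2 (-1.60 ± 0.15, adjusted p = 0.00446). In each of these 3 genes mimic-ctrl1 was the lowest and mimic-ctrl2 the highest of the 6 arrays of both lines. All 3 calls held with any of the 12 arrays left out.

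The other genes among the 12 lowest serve varied functions. GLYR1, a chromatin-associated protein, had 6.42 (MCF10A) and 6.47 (MDA-MB-231) with mimic-ctrl1, against 8.13 and 7.83 with mimic-ctrl2, and its mean level with mimic-ctrl1 was 34.4% of that with mimic-ctrl2 (adjusted p = 0.00343). NSF, the ATPase that takes apart SNARE complexes after membrane fusion, had 9.33 (MCF10A) and 9.67 (MDA-MB-231) with mimic-ctrl1, against 10.50 and 11.35 with mimic-ctrl2 (-1.42 ± 0.14, adjusted p = 0.00483). Its second probe gave -1.74 for MCF10A and -1.88 for MDA-MB-231. ALDH1A3, which makes retinoic acid from retinaldehyde, fell by 1.41 ± 0.17 on the log2 scale (adjusted p = 0.00832), and its second probe gave -1.17 and -1.73. Also called lower were CYP4V2 (-1.54 ± 0.25), a fatty acid hydroxylase, AMMECR1 (-1.49 ± 0.20), TPMT (-1.47 ± 0.24), which methylates thiopurines, SERP1 (-1.42 ± 0.25), a small protein of the endoplasmic reticulum, C3orf52 (-1.41 ± 0.25) and TYW3 (-1.38 ± 0.16), a tRNA-modifying enzyme, with adjusted p between 0.00812 and 0.0252 (limma). C3orf52 and TYW3 were not well above background with mimic-ctrl1 in MDA-MB-231, where they were at least 2.57-fold and 3.28-fold lower than with mimic-ctrl2. CYP4V2 lost the call when only MDA-MB-231 was used, and TPMT, SERP1, ALDH1A3 and C3orf52 when only MCF10A was used, with the same direction.

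Among genes called higher with mimic-ctrl1, GALNT1 had the largest mean difference. This enzyme starts mucin-type O-glycosylation, and with mimic-ctrl1 its log2 level was 7.80 (MCF10A) and 8.13 (MDA-MB-231), against 6.94 and 5.80 with mimic-ctrl2 (1.59 ± 0.27, adjusted p = 0.0216). COL7A1, the collagen of the anchoring fibrils below epithelia, had differences of 1.20 in MCF10A and 1.69 for MDA-MB-231, a mean of 2.72-fold (1.45 ± 0.16, adjusted p = 0.00692). GPER1, a G protein-coupled receptor for estrogen, had 9.16 (MCF10A) and 8.93 (MDA-MB-231) with mimic-ctrl1, against 8.02 and 7.57 with mimic-ctrl2 (1.25 ± 0.12, adjusted p = 0.00483), and its second probe gave 0.81 and 1.51. For all 3 genes mimic-ctrl2 was the lowest of the 6 arrays of each line, and the calls held with any of the 12 arrays left out.

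CYB5R2, a cytochrome b5 reductase, had 8.80 (MCF10A) and 6.78 (MDA-MB-231) with mimic-ctrl1, against 7.56 and 5.61 with mimic-ctrl2 (adjusted p = 0.00343). The mimic-ctrl2 array of MDA-MB-231 was not well above background, and the gene was at least 2.08-fold higher with mimic-ctrl1 there. ADAM19, a membrane-bound metalloprotease, rose by 1.18 ± 0.12 (adjusted p = 0.00497), and CD24, a surface glycoprotein used to sort breast cancer cells, by 1.20 ± 0.15 (adjusted p = 0.00892). PLAGL2, a zinc finger transcription factor (1.27 ± 0.21), SNORA12, a small nucleolar RNA (1.14 ± 0.15), and PHGDH, the first enzyme of serine synthesis (1.23 ± 0.25), were called as well, with adjusted p of 0.0201, 0.0119 and 0.0334. In FGFR3, a fibroblast growth factor receptor, the brightest probe gave 1.30 ± 0.19 (adjusted p = 0.0151), but the second gave -0.58 for MCF10A and 0.34 for MDA-MB-231, so its probes disagree. The brightest probe was not well above background with mimic-ctrl2 in MDA-MB-231, where it was at least 1.30-fold higher with mimic-ctrl1. Neither mimic-ctrl2 array was well above background for ZBTB47 and MEGF10. ZBTB47, a zinc finger protein, was at least 1.35-fold higher with mimic-ctrl1 in MCF10A and 2.24-fold higher in the other line (adjusted p = 0.0292, limma). MEGF10, an engulfment receptor, was at least 1.33-fold and 1.06-fold higher. These bounds take the dim array at the lowest level above background. MEGF10 was above background on 2 of the 12 arrays, both with mimic-ctrl1, and passed the filter only through them. Its call is therefore no support for a difference. CD24, PLAGL2, SNORA12, FGFR3 and PHGDH lost the call when only MCF10A was used, ZBTB47 and MEGF10 with either line alone, and PHGDH also with any of the 8 mimic arrays left out.

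**Figure D3:**
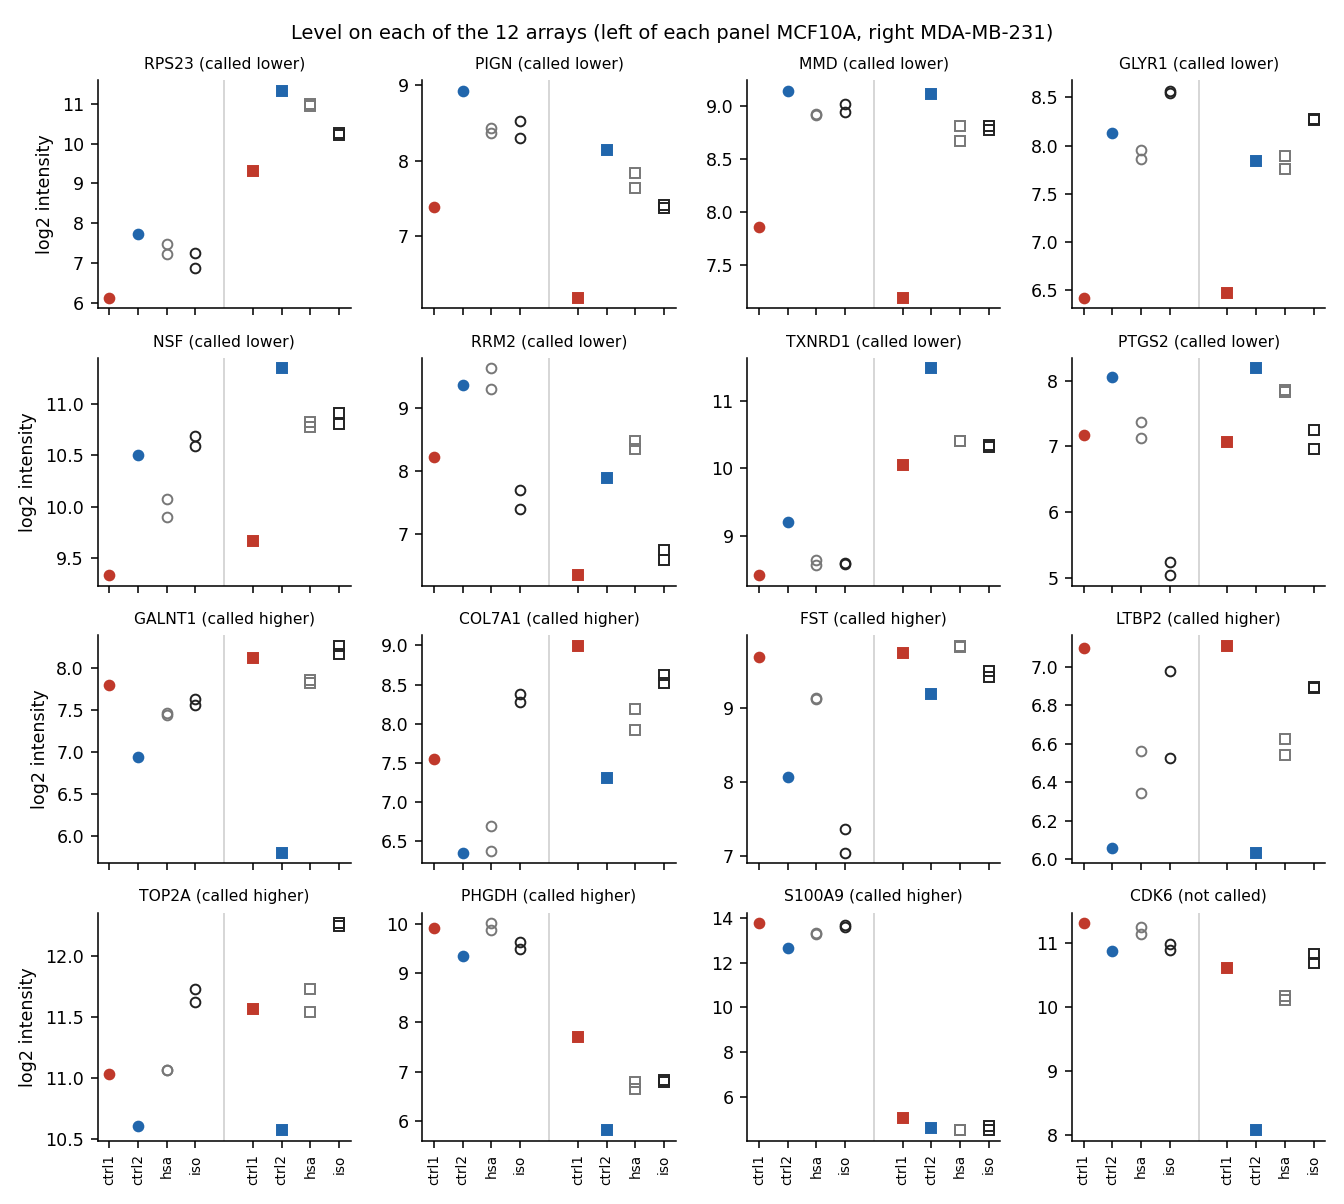
Log2 intensity on each of the 12 arrays for 16 genes. In each panel circles are MCF10A and squares MDA-MB-231, red is mimic-ctrl1, blue mimic-ctrl2, and the open grey and black symbols are the duplicate arrays with the canonical (hsa) and the isomiR (iso) mimic. The vertical scale differs between panels. In GLYR1 all 4 mimic arrays of a line lie near mimic-ctrl2 and far above mimic-ctrl1, and in GALNT1 they lie nearer to mimic-ctrl1 than to mimic-ctrl2 in MDA-MB-231.

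The arrays with the canonical and isomiR mimics show which control stood apart from the rest of its line. GLYR1 had 7.86 to 8.57 on the 4 mimic arrays of MCF10A and 7.76 to 8.28 on those of MDA-MB-231, close to mimic-ctrl2 and far from mimic-ctrl1. AMMECR1 likewise had 9.07 to 9.35 on the mimic arrays of MCF10A, against 8.03 with mimic-ctrl1 and 9.02 with mimic-ctrl2. The opposite was seen for PLAGL2, with 8.94 to 9.20 on the mimic arrays of MCF10A and 9.28 to 9.51 on those of MDA-MB-231. That is near its mimic-ctrl1 levels of 8.82 and 9.43 and above its mimic-ctrl2 levels of 8.05 and 7.65. Over the 169 genes called lower, the mean of the mimic arrays lay nearer to mimic-ctrl1 in both lines in 47 (27.8%) and nearer to mimic-ctrl2 in 73 (43.2%). Over the 132 genes called higher, it lay nearer to mimic-ctrl1 in 63 (47.7%) and nearer to mimic-ctrl2 in 33 (25%). Of all tested genes 29.5% were nearer to mimic-ctrl1 and 24.2% nearer to mimic-ctrl2. In either set, then, the control with the lower level stood apart in the larger number of genes. Mimic-ctrl1 was the lowest of the 6 arrays of both lines in 93 of the 169 lower genes (5.98% of all genes) and mimic-ctrl2 the highest in 83 (7.61%). Among the 132 higher genes mimic-ctrl1 was the highest in 40 (4.66% of all genes) and mimic-ctrl2 the lowest in 68 (7.18%). The call already fixes the order of the controls, so these shares are a description. Single genes can also follow an effect of a mimic, as RRM2 did with 7.40 and 7.70 on the isomiR arrays and 9.31 and 9.63 on the canonical arrays of MCF10A.

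Genes were then grouped in 25 lists of pathways, stress responses and cell identity, of which 514 members were tested and 18 called (3.5%, against 2.87% of all genes). In this fit over both lines at least 1 called member was found in 11 lists and none in 14. Transfected RNA can be sensed by the innate immune system. Of 36 tested interferon-stimulated genes none was called over both lines in either direction (2.87% of all genes were). Their median difference was -0.10 for MCF10A and -0.16 for MDA-MB-231. In each line mimic-ctrl2 was the highest of the 6 arrays in 14 of the 36 (19.6% of all genes in MCF10A and 21.7% in MDA-MB-231). The mean differences at either end of this list were -0.80 for IFIT3 (adjusted p = 0.153, limma) and 0.62 for OAS1 (adjusted p = 0.115), each of which was not well above background on a part of the control arrays. Of 18 cytokines and other inflammatory genes, 2 were lower with mimic-ctrl1 and none higher (1.61% of all genes were called lower), with list medians of 0.02 for MCF10A and 0.14 for MDA-MB-231. PTGS2, the inducible cyclooxygenase, had 7.17 (MCF10A) and 7.06 (MDA-MB-231) with mimic-ctrl1, against 8.06 and 8.19 with mimic-ctrl2 (-1.01 ± 0.14, adjusted p = 0.014). IL32, a proinflammatory cytokine, had 7.70 (MCF10A) and 6.68 (MDA-MB-231) with mimic-ctrl1, against 8.65 and 7.45 with mimic-ctrl2 (-0.86 ± 0.11, adjusted p = 0.00987). PTGS2 lost the call when only MCF10A was used and IL32 without background correction.

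Among 17 tested targets of NRF2, the transcription factor of the oxidative stress response, 3 were called lower and none higher with mimic-ctrl1 (1.61% of all genes were called lower). Their median was -0.13 for MCF10A and -0.18 for MDA-MB-231. In MCF10A 2 of the 17 were past 65% higher and 1 lower, and in MDA-MB-231 0 were past it higher and 3 lower. TXNRD1, the cytosolic thioredoxin reductase, had 8.41 (MCF10A) and 10.05 (MDA-MB-231) with mimic-ctrl1, against 9.21 and 11.49 with mimic-ctrl2 (-1.12 ± 0.14, adjusted p = 0.00987), and its second probe gave -0.72 and -1.37. ABCC3, a drug efflux pump, fell by 0.70 ± 0.14 (adjusted p = 0.035), and HMOX1, which degrades heme, lay at the limit (adjusted p = 0.0445) and was at least 1.27-fold lower in MCF10A, its mimic-ctrl1 array there being dim. NQO1, a widely used reporter of this pathway, had differences of -0.35 and 0.03 and was not called. Of the p53 targets 1 of 17 was called in each direction (1.26% of all genes were called higher and 1.61% lower). These were GDF15 with 0.64 ± 0.11 (adjusted p = 0.0226) and TP53I3 with -0.74 ± 0.14 (adjusted p = 0.0266). HEXA, a lysosomal hexosaminidase (-0.77 ± 0.15, adjusted p = 0.0281), and BCL2L2, an antiapoptotic BCL2 protein (-0.66 ± 0.13, adjusted p = 0.0305), were the only called members of their lists of 25 and 13 tested genes. In MCF10A HEXA was not well above background with mimic-ctrl1 and is known only to be at least 1.05-fold lower. GDF15 lost the call under median scaling, which shifted all genes of MCF10A by a median of -0.11, and when only MCF10A was used. TP53I3, HEXA, BCL2L2 and HMOX1 lost it with either line alone, and ABCC3 with MCF10A alone or with any of the 8 mimic arrays left out. No member was called over both lines among tested genes of heat shock (18), replication-dependent histones (14), cholesterol and fatty acid synthesis (25) or glycolysis and hypoxia (28). The same held for SRF and immediate-early genes (26), mesenchymal genes (11) and oxidative phosphorylation (28), where 2.87% of all genes were called. Some of these lists still lay to one side in a single line. With mimic-ctrl1 24 of 28 glycolysis and hypoxia genes were higher in MDA-MB-231 (median 0.24) and 9 in MCF10A (-0.11). Of 25 cholesterol and fatty acid genes 4 were higher in MCF10A (-0.21) and 16 in MDA-MB-231 (0.06). Of 28 oxidative phosphorylation genes 4 were higher in MDA-MB-231 (-0.13) and 15 in MCF10A (0.01). Of the 2 housekeeping genes used for PCR in the study, HPRT1 differed by -0.11 in MCF10A and -0.03 in the other line, and GAPDH by -0.09 and 0.17.

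The candidate targets of the study were read against these controls. Of the 7 tested none was called between the control mimics (2.87% of all genes were). CAP1, also a candidate of the study, had no probe under its name and was not tested. The largest mean difference was -0.50 ± 0.15 for MARCKSL1, an actin-binding protein (adjusted p = 0.096, limma), with 7.26 (MCF10A) and 9.71 (MDA-MB-231) with mimic-ctrl1, against 7.64 and 10.33 with mimic-ctrl2. COL4A1, a basement membrane collagen, had 9.72 (MCF10A) and 9.25 (MDA-MB-231) with mimic-ctrl1, against 10.21 and 8.96 with mimic-ctrl2, so that its sign differed between lines. In MDA-MB-231 the mean of the isomiR arrays minus mimic-ctrl1 was -1.15 and minus mimic-ctrl2 -0.85 for COL4A1. The same differences were -1.34 and -1.95 for MARCKSL1, and -1.23 and -1.21 for ITGA6, an integrin subunit. For MCF10A they were -2.17 and -2.66 for COL4A1 and -2.23 and -2.18 for ITGA6, while MARCKSL1 was not well above background on either isomiR array there. All these values were lower with the isomiR mimic than with either control. For the candidates SRF and CHCHD4, passing the limit in MDA-MB-231 depended on the control. Against mimic-ctrl1 they stayed within it (-0.49 and -0.61), and against mimic-ctrl2 they were past it (-0.72 and -1.03). In MCF10A both were past it against either control. RUVBL1 and CCT5 were past it against either control in both lines. The study picked its candidates from genes lowered by the isomiR mimic in both lines on these same arrays. The direction therefore follows from that choice, and only the size against each control is described here.

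Which of the 10494 tested genes were counted as lowered by a mimic also depended on the control array, while some totals were close. Under 65% of mimic-ctrl1 in MDA-MB-231 were 446 genes with the canonical and 811 with the isomiR mimic, and under 65% of mimic-ctrl2 436 and 918. With the canonical mimic 140 genes were under the limit against both controls, 31.4% of the mimic-ctrl1 list and 32.1% of the mimic-ctrl2 list, and with the isomiR mimic 441 were, 54.4% and 48.0%. In MCF10A the lists held 422 and 979 genes against mimic-ctrl1 and 485 and 1148 against mimic-ctrl2. There 150 genes (35.5% and 30.9%) and 639 genes (65.3% and 55.7%) were on both. Against the mean of both controls, 256 genes with the canonical and 694 with the isomiR mimic were under the limit in MDA-MB-231. The same counts were 307 and 907 in MCF10A. The lists set side by side share the mimic arrays, and no test was made of their overlap. Each control had 1 array per line, and replicate arrays of a mimic already differed past the limit in 206 to 469 genes in either direction. The part of such spread in the partial overlap was not tested.

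The control mimics also differed in ways that the lines did not share. The difference between lines passed the test in 6 genes, 0.0572% of those tested, and 1569 genes had an unadjusted p under 0.05. S100A2, a calcium-binding protein of basal epithelia, had the largest. In MDA-MB-231 it had 8.77 with mimic-ctrl1, against 4.95 with mimic-ctrl2, where it was not well above background, so that it was at least 8.27-fold higher with mimic-ctrl1. In MCF10A it had 12.91 with mimic-ctrl1, against 12.27 with mimic-ctrl2 (difference between lines 3.19 ± 0.28, adjusted p = 0.0262, limma). CDK6, a kinase of the entry into S phase, had 10.61 in MDA-MB-231 with mimic-ctrl1, against 8.07 with mimic-ctrl2, and 11.30 in MCF10A with mimic-ctrl1, against 10.87 with mimic-ctrl2 (2.10 ± 0.20, adjusted p = 0.0262). The mimic arrays of MDA-MB-231 lay between 10.11 and 10.82 for CDK6, near mimic-ctrl1, and between 6.46 and 6.98 for S100A2, between the controls.

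MFAP2, a protein of elastic microfibrils, was at least 1.86-fold higher with mimic-ctrl1 in MDA-MB-231 and not above background on either MCF10A control array (1.94 ± 0.17, adjusted p = 0.0262). ANGPTL4, a secreted inhibitor of lipoprotein lipase, differed by 1.58 in MDA-MB-231 and by -0.29 in MCF10A (1.87 ± 0.18, adjusted p = 0.0286), while its second probe gave 0.46 and -0.20. DNER, a transmembrane ligand of Notch, went in opposite directions, with 6.01 in MDA-MB-231 with mimic-ctrl1, against 7.22 with mimic-ctrl2, and 9.99 in MCF10A with mimic-ctrl1, against 8.99 with mimic-ctrl2 (-2.21 ± 0.18, adjusted p = 0.0262). S100A7, psoriasin, was at least 1.43-fold higher with mimic-ctrl1 in MCF10A and above background on no control array of MDA-MB-231 (-2.11 ± 0.20, adjusted p = 0.0262). These calls take the lone control arrays to vary like the replicate pairs and move with the estimate of that spread. None of the 6 was called under a looser filter on dim probes, nor without a canonical mimic array of either line or an isomiR array of MDA-MB-231, while 256 genes, these 6 included, were called without background correction.

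Genes of keratinocyte differentiation, which build the cornified envelope of stratified epithelia or are secreted by it, lay higher with mimic-ctrl1 in MCF10A. Of 15 tested, 12 were past 65% higher there and none lower (4.35% of all genes were past it higher), with a median difference of 1.43. The median in MDA-MB-231 was -0.05, where 5 of the 15 were above background on a control array, against 14 of 15 in MCF10A. The small proline-rich protein SPRR1B had 7.75 in MCF10A with mimic-ctrl1, against 5.71 with mimic-ctrl2, and S100P, a calcium-binding protein, had 9.95 with mimic-ctrl1, against 8.11 with mimic-ctrl2. The alarmins S100A8 and S100A9 had 14.02 and 13.78 with mimic-ctrl1, against 12.91 and 12.64 with mimic-ctrl2. Both ends of the intensity range thus took part. The serpin SERPINB3 had 8.98 with mimic-ctrl1, against 7.51 with mimic-ctrl2, and the elastase inhibitor PI3 11.51, against 10.03. CNFN and SERPINB1, with -0.07 and 0.41, stayed within the limit, and LCN2 was above background on no control array.

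Over both lines only S100A9 of this list was called (0.80 ± 0.15, adjusted p = 0.0284), not well above background in MDA-MB-231 and not called when only that line was used, and of the differences between lines only that of S100A7. In MCF10A alone, with the spread taken from the replicate pairs, KRT10, S100A7, S100A9, SERPINB4 and S100P had an adjusted p between 0.02 and 0.0354 (limma), where 0.6% of all genes were called higher. Mimic-ctrl1 was the highest of the 6 MCF10A arrays in 8 of the 15 genes (15.6% of all genes) and mimic-ctrl2 the lowest in 8 (19.1%). Among epithelial genes, of which none of 22 was called over both lines (2.87% of all genes were), KRT16 gave 0.86 in MCF10A, and the median was 0.15. Fewer differentiating cells and less RNA per cell cannot be told apart in bulk RNA, and the density of the cultures was not analysed here.

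**Figure D4:**
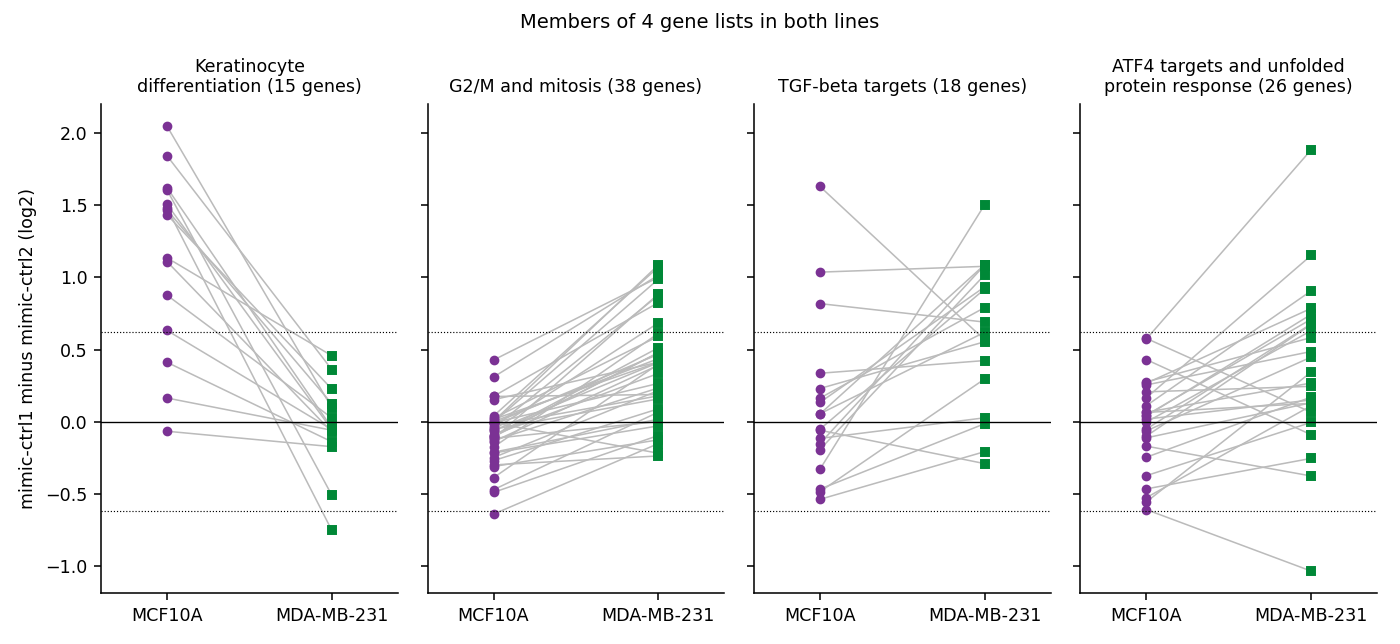
Difference between mimic-ctrl1 and mimic-ctrl2 in log2 for each tested gene of 4 lists, with MCF10A as circles on the left and MDA-MB-231 as squares on the right of each panel and a grey line joining the values of a gene. Dotted lines mark the limit of 65%. Most keratinocyte differentiation genes (12 of 15) are past it in MCF10A and none is past it upwards in MDA-MB-231, whereas 9 genes of each of the other 3 lists are past it upwards in MDA-MB-231.

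Other lists stood out in MDA-MB-231. Genes of G2/M and mitosis had a median difference of 0.40 there, against -0.08 in MCF10A, and 9 of 38 were past 65% higher in MDA-MB-231 and none lower (6.1% of all genes were past it higher). TOP2A, which untangles DNA before mitosis, had 11.03 (MCF10A) and 11.57 (MDA-MB-231) with mimic-ctrl1, against 10.60 and 10.57 with mimic-ctrl2 (0.71 ± 0.14, adjusted p = 0.0319). It lost the call under median scaling, when only MCF10A was used and with any of the 8 mimic arrays left out. The cyclin CCNA2 had 10.67 in MDA-MB-231 with mimic-ctrl1, against 9.58 with mimic-ctrl2, and FOXM1, a transcription factor of mitotic genes, had 8.62 with mimic-ctrl1, against 7.60 with mimic-ctrl2. CDK1, by contrast, had 10.34 with either. When only MDA-MB-231 was used 8 of the 38 were called higher (3.08% of all genes). Mimic-ctrl2 was the lowest of the 6 MDA-MB-231 arrays in 26 of the 38 genes, against 22.6% of all genes, but also in 20 of 37 genes of G1/S and replication, 17 of 28 of glycolysis and hypoxia and 11 of 18 TGF-beta targets. The G1/S list had a median of 0.05 in MDA-MB-231, and the difference between the lists was not tested. In that line 2 of its 37 genes were past 65% higher, CDK6 with 2.54 among them, and 1 was past it lower. The called member of the G1/S list, RRM2, a subunit of ribonucleotide reductase, went the other way, with 8.22 (MCF10A) and 6.35 (MDA-MB-231) with mimic-ctrl1, against 9.37 and 7.90 with mimic-ctrl2 (-1.35 ± 0.16, adjusted p = 0.00859), and lost the call when only MCF10A was used.

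Targets of TGF-beta signaling, a driver of the mesenchymal state, had a median of 0.65 in MDA-MB-231 and 0.00 in MCF10A over 18 genes, 9 of which were past 65% higher in MDA-MB-231 and none lower (6.1% of all genes were past it higher). Without background correction 5 were. Over both lines 3 were called, all higher with mimic-ctrl1 (1.26% of all genes). FST, the activin antagonist follistatin, had 9.70 (MCF10A) and 9.76 (MDA-MB-231) with mimic-ctrl1, against 8.07 and 9.19 with mimic-ctrl2 (1.10 ± 0.22, adjusted p = 0.0314). LTBP2, a latent TGF-beta binding protein, had 7.10 (MCF10A) and 7.11 (MDA-MB-231) with mimic-ctrl1, against 6.06 and 6.03 with mimic-ctrl2 (1.06 ± 0.15, adjusted p = 0.014), and the collagen COL5A1 differed by 0.69 in MDA-MB-231 and was at least 1.30-fold higher in MCF10A, where its mimic-ctrl2 array was not well above background (adjusted p = 0.0246). FST lost the call when only MDA-MB-231 was used, LTBP2 when only MCF10A was used and COL5A1 with either. SMAD7, an inhibitor of the pathway, differed by 0.92 in MDA-MB-231 and by -0.05 in MCF10A and was not called over both lines. It was 1 of 6 members called higher when only MDA-MB-231 was used (3.08% of all genes).

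Targets of YAP, the transcriptional coactivator of the Hippo pathway, had medians on opposite sides of 0. None was called over both lines (2.87% of all genes were). In MCF10A the median was -0.33, 6 of 22 were past 65% lower (4.6% of all genes were), none was past it higher and 1 had a positive difference, whereas in MDA-MB-231 the median was 0.16. Without background correction the MCF10A median was -0.19 and 2 were past 65% lower. The matricellular protein CCN2 had 8.12 in MCF10A with mimic-ctrl1, against 9.02 with mimic-ctrl2, and 12.83 in MDA-MB-231 with mimic-ctrl1, against 12.07 with mimic-ctrl2. For CCN1, a relative of CCN2, the difference was -1.47 in MCF10A and 0.19 for the other line. Metallothioneins, which bind zinc, had a median of 0.15 in MCF10A and -0.47 for MDA-MB-231 over 6 genes. None of them was called over both lines (2.87% of all genes were). In MDA-MB-231 all 6 differences were negative, and mimic-ctrl2 was the highest of the 6 arrays in 4 of the genes (21.7% of all genes).

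ATF4 targets and genes of the unfolded protein response had a median of 0.31 in MDA-MB-231 and 0.03 in MCF10A over 26 genes, with 9 past 65% higher (6.1% of all genes were) and 1 lower in MDA-MB-231 and none past it in MCF10A. Without background correction 6 were past it higher, with deposited values on a log2 scale 4, and median scaling turned the MCF10A median to -0.08. When only MDA-MB-231 was used 8 members were called higher (3.08% of all genes) and 1 lower. PHGDH was the called higher member, with 9.92 (MCF10A) and 7.70 (MDA-MB-231) with mimic-ctrl1, against 9.35 and 5.82 with mimic-ctrl2. The cystine transporter SLC7A11 was called lower (adjusted p = 0.0246) and, with neither mimic-ctrl1 array well above background, was at least 1.39-fold lower in MCF10A and 1.37-fold lower in the other line. It lost the call when only MCF10A was used. ATF4 itself had 12.78 in MDA-MB-231 with mimic-ctrl1, against 12.07 with mimic-ctrl2, and DDIT4, an inhibitor of mTORC1, had 10.47 with mimic-ctrl1, against 9.56 with mimic-ctrl2. Mimic-ctrl1 was the highest of the 6 MDA-MB-231 arrays in 18 of the 26 genes, against 20.1% of all genes. The medians of these lists describe the lines, and their difference between lines was not tested. Among 17 genes of miRNA processing and the Argonaute machinery none was called over both lines (2.87% of all genes were). AGO2, the Argonaute protein that cleaves targets, had the largest mean difference there, with 10.61 (MCF10A) and 10.56 (MDA-MB-231) with mimic-ctrl1, against 10.19 and 9.23 with mimic-ctrl2 (0.87 ± 0.21, adjusted p = 0.0562). When only MDA-MB-231 was used, AGO2 (adjusted p = 0.0152, limma) and TARBP2, a partner of Dicer, were called higher (3.08% of all genes).

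**Figure D5:**
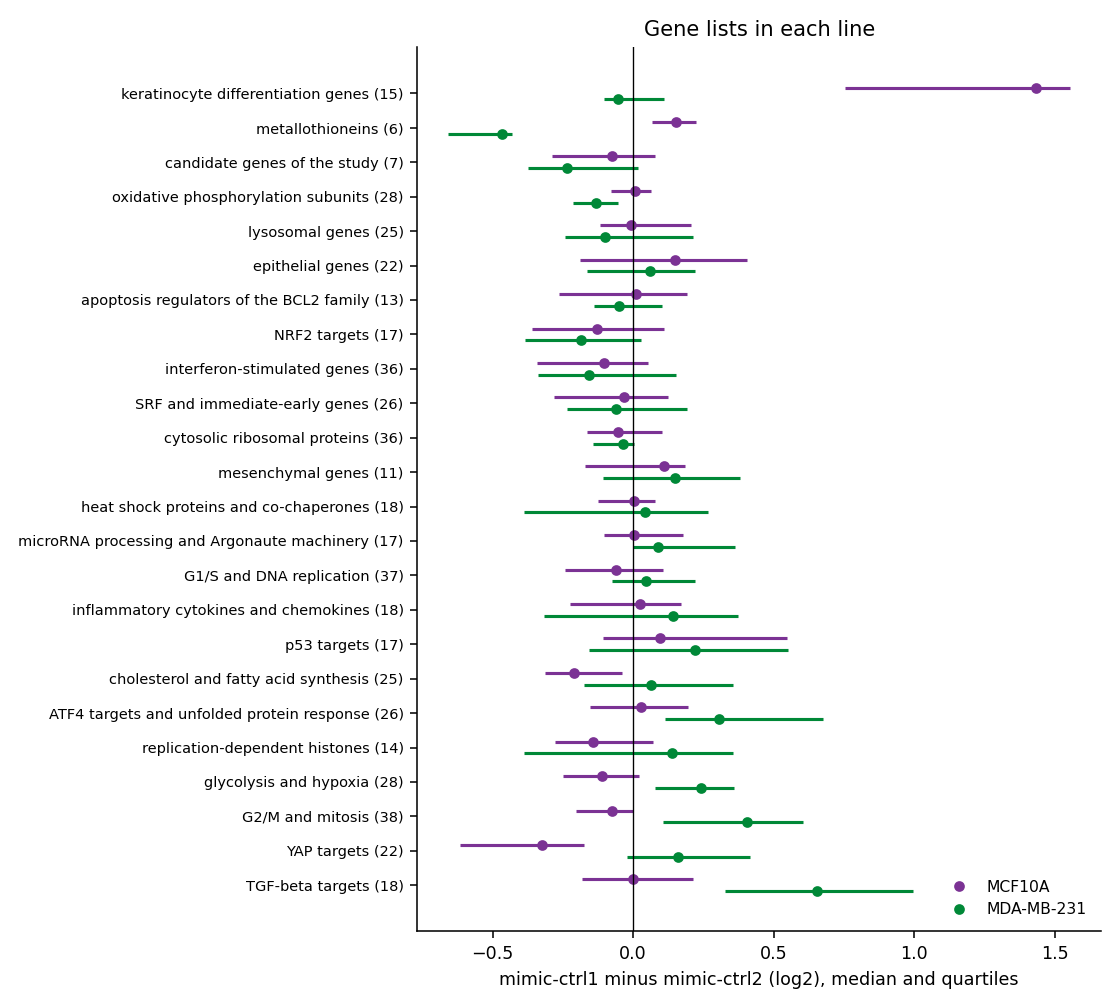
Median (point) and quartiles (bar) of the difference between mimic-ctrl1 and mimic-ctrl2 in log2 over the tested genes of 24 lists, in MCF10A (purple) and MDA-MB-231 (green), with the number of tested genes in brackets. Keratinocyte differentiation genes lie highest in MCF10A (1.43) and TGF-beta targets highest in MDA-MB-231 (0.65). The medians were -0.10 in MCF10A and -0.16 in MDA-MB-231 for interferon-stimulated genes, and -0.05 and -0.03 for ribosomal proteins.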

How the data were processed

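RNA of 12 samples was hybridised to Illumina HumanHT-12 v4 arrays. The deposited values are linear intensities, normalized by the authors between the arrays of a line by a method not given in the sources used here, with no background subtracted. A further 24 columns of signals and detection p-values matched no sample label and were not used. Of 47323 probes, 4 with missing values were left out, and the platform annotation named 1 gene for 30111 probes, more than 1 for 8 and no gene for 17200. Symbols were updated by gene ID for 30072. The intensities went through neqc of limma 3.58.1 in R 4.3.3 (normexp with an offset of 16, quantile normalization, log2), with 455 olfactory receptor probes as negative controls. A probe was above background on an array when it exceeded the 0.99 quantile of those probes, and 13730 to 14679 probes did so on the control arrays. Probes above background on at least 2 of 12 arrays were kept, and the brightest of each gene was tested. The number of arrays limits the precision.

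The model held 4 means for the groups of mimic arrays, a control mean per line and 1 common difference of mimic-ctrl1 minus mimic-ctrl2 (5 residual and 3.57 prior degrees of freedom). The difference between lines came from a model with a mean per group (4 and 3.19). Calls needed a Benjamini-Hochberg adjusted p under 0.05 over 10494 genes and the 65% limit of the study, applied to whichever control was lower. Results of a single line come from leaving out a control array of the other line, with the lone arrays assumed to vary like the replicate pairs.

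Named genes were the 12 largest called in each direction, the largest in each line and for the difference between lines, called members of each list or otherwise its largest, and the candidate and housekeeping genes of the study. List members named beyond these, RAB27B and the markers were chosen after their values were seen. The comparison, lists and tests were chosen with earlier results of these data known. The fits were tested on simulated data. Alternatives were other normalizations, filters, probe summaries and moderation, the control arrays alone, the methods' t-test, no fold limit, a replicate block, each array left out in turn and, added after seeing the data, only genes above background on all 4 control arrays.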

Additional observations from a re-analysis of the deposited data

Results flagged for a closer look

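In 6 genes the difference between mimic-ctrl1 and mimic-ctrl2 itself differed between the lines (limma, interaction of control mimic and line). As the MDA-MB-231 difference minus the MCF10A difference in log2, it was 3.19 for S100A2, 2.10 for CDK6, 1.94 for MFAP2, 1.87 for ANGPTL4, -2.11 for S100A7 and -2.21 for DNER. The values of S100A2, MFAP2 and S100A7 include control arrays on which the gene was not well above background, so they are imprecise. Each control mimic had 1 array per line, and the part of that array in these values was not tested.

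Another 31 genes, DNER among them, passed 65% in both lines in opposite directions. Apart from DNER, their difference between lines did not pass the test. Of the 31, 13 were higher with mimic-ctrl1 in MCF10A and lower in MDA-MB-231, and 18 the reverse. RAB27B, a small GTPase of vesicle secretion chosen after its values were seen, had 10.45 in MCF10A with mimic-ctrl1, against 9.63 with mimic-ctrl2, and 9.78 in MDA-MB-231, against 10.55 (difference between lines -1.59, adjusted p = 0.0505, limma).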

How the results depend on the processing

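Over both lines 132 genes were higher and 169 lower with mimic-ctrl1, 6 differed between lines and 199 passed 65% the same way in both. Without background correction these counts were 65, 79, 256 and 46, and with deposited values on a log2 scale 63, 87, 273 and 46. With no filter on dim probes 60 were higher, 87 lower and 0 differed between lines (1672 at an unadjusted p under 0.05 past the limit), and with a looser filter 0 differed (1275). Median scaling gave 89 higher against 231 lower, and 12 between lines. Trend and robust moderation raised the last to 249, no fold limit gave 200 higher, and only genes above background on all 4 control arrays, an alternative chosen after seeing the data, gave 35 between lines and 126 the same way in both. The control arrays alone gave 0 and 0 by limma (267 and 293 unadjusted), and the methods' t-test gave 23 higher and 26 lower before and 0 and 0 after Benjamini-Hochberg adjustment. A replicate block left 11 higher, 17 lower and 0 between lines (1143 unadjusted). Replicate numbers were not found to pair the mimic samples, whose deviations correlated between mimics by 0.022 (MCF10A) and -0.022 (MDA-MB-231), while all controls are number 1. Leaving out each array gave 63 to 323 higher, 56 to 275 lower and 0 to 8 between lines. The extremes of the first 2 come from leaving out a control array, so that 1 line remains, and leaving out a canonical mimic array of MDA-MB-231 gave 73 and 96 and ended 13 of 40 named calls (C3orf52, SLC7A11, ABCC3, HMOX1, TP53I3, HEXA, BCL2L2, FST, COL5A1, S100A9, PHGDH, TOP2A and ZBTB47). The mean of DNER, -0.11 and not called, was -1.22 without a MCF10A control array and 0.99 without a MDA-MB-231 control array (adjusted p = 0.0329). Calls that held with each of the 12 arrays left out numbered 11 higher and 23 lower. Of 40 named called genes, 28 were still called without background correction, 26 with no filter, 38 under median scaling, 15 with the replicate block, 30 when only MDA-MB-231 was used and 17 when only MCF10A was used. The causes were not tested, other than fewer genes or arrays where an alternative uses fewer.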
